A study of Mus musculus with 8 samples.

Results

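The biliary and progenitor markers Spp1, Sox9, Sox4, Epcam, Cd24a and Prom1 and the simple keratins Krt7, Krt8, Krt18 and Krt19 were examined in RNA-seq gene counts of AML-12 cells, an established line of mouse hepatocytes. The 10 genes were chosen by symbol, and all 10 had a row among the 21983 in the deposited count table. Of these, 8 passed the filter on low counts, as did 11520 genes in all. The study compared 4 libraries of AML-12 cells in which Gm47544 was overexpressed with 4 libraries of AML-12 cells labelled wild type and carrying pLKO.1, the backbone of a lentiviral vector, as the control. The titles of the overexpression libraries name no vector, so an effect of Gm47544 and one of a difference in vector cannot be told apart. Gm47544 itself was not analysed here, so the group labels were not checked by its level. All cells were grown in DMEM with fetal bovine serum and antibiotics. Separate cultures are not stated in the labels. The p-values here therefore set the group difference against the spread among these libraries only, and that spread may be technical.

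Library totals ran from 11016907 to 17338310 counts with overexpression and from 12256376 to 18965662 in controls. Control library 3 stood apart from the other controls on the first principal component of log expression, which held 82.5% of the variance, at -22.2 against -60.7 to -50.0 for the other 3 controls and 43.4 to 50.4 for the overexpression libraries. Values without it are given where a call of a named gene changed. Markers of hepatocytes were unevenly expressed in both groups, with Hnf4a, a transcription factor of hepatocyte identity, at 310.3 ± 4.51 CPM with overexpression and 348 ± 23.7 CPM in controls and transthyretin (Ttr) at 279 ± 24.2 CPM with overexpression and 1321 ± 239 CPM in controls (SD, n = 4). Hnf4a did not pass with all libraries (log2 fold change -0.17, edgeR adjusted p = 0.15) and passed without control library 3 (-0.19, adjusted p = 0.0327) and with the trend of each library on transcript length removed (-0.40, adjusted p = 0.00278). Of 28 hepatocyte markers with a row, 18 were tested, of which 4 rose, 8 fell and 6 did not pass, and the other 10 had too few counts to test. Albumin (Alb), chosen after its values were seen, was at 267 ± 28.2 CPM with overexpression and 22.3 ± 3.85 CPM in controls (SD, n = 4; log2 fold change 3.58, SE 0.15), and the other genes that rose were Apob, Fga and Fgb. Fga and Fgb passed the count filter only through the overexpression libraries, and Trf, which fell, only through the controls. The summed level of the list was 1406 to 1478 CPM with overexpression and 2150 to 2795 CPM in controls. Of other cell types, the leukocyte list summed to 602 to 750.3 CPM with overexpression and 830.2 to 1294 CPM in controls, nearly all of it Cd14. In this list 7 of 10 genes were detected and 4 were tested, of which 2 fell and 2 did not pass. Csf1r of this list was at 10.2 ± 1.7 CPM with overexpression and 27.1 ± 2.46 CPM in controls (SD, n = 4; log2 fold change -1.40, SE 0.15). The macrophage genes Adgre1 and Clec4f and the T cell gene Cd3e were at 0. The endothelial list summed to 3.31 to 4.24 CPM with overexpression and 0.5 to 1.39 CPM in controls, the stellate cell list to 10.4 to 17.6 CPM with overexpression and 4 to 5.85 CPM in controls, and the mesothelial list to 316 to 362 CPM with overexpression and 275 to 396 CPM in controls. In the endothelial and stellate cell lists 2 genes each were tested and all rose, where 32.3% of all genes did. Of these, Cdh5, Vwf and Col1a1 passed the count filter only through the overexpression libraries. Of 3 mesothelial genes tested, 2 fell and 1 did not pass, and Upk3b, which fell, passed the filter only through the controls. The part of these other lists in the results below was not tested. In bulk RNA, a lower share of cells with a transcript and less of it per cell cannot be told apart.

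Hepatocytes and cholangiocytes, the cells that line the bile ducts, arise from a common progenitor in the embryonic liver. Biliary differentiation is driven in part by Notch signalling and is marked by Sox9, osteopontin (Spp1) and the keratins Krt7 and Krt19. Mature hepatocytes keep only the simple keratins Krt8 and Krt18, and injured or cultured hepatocytes can take up biliary markers. Keratins are obligate heteropolymers: filaments are built from pairs of a type II chain (Krt7 or Krt8) and a type I chain (Krt18 or Krt19), and chains without a partner are degraded.

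Transcripts of osteopontin and Sox4 rose with Gm47544 overexpression, while Sox9, Krt18 and Krt19 fell. The calls of Krt18 and Krt19 were lost with the trend of each library on transcript length removed, and Krt19 passed in only 5 of 15 alternative fits. Krt7, Krt8 and Cd24a did not pass the test, Prom1 had too few counts to be tested, and Epcam was practically undetected. The 5 genes that passed were 5 of the 8 tested, or 62.5%, close to the background of 64.4% of all genes tested (edgeR quasi-likelihood adjusted p under 0.05), so their number is no result about these genes. By direction, 2 of the 8 rose, where 32.3% of all genes did, and 3 fell, where 32.1% did. Without control library 3, 7 of the 8 passed, where the background was 77.4%. With the trend of each library on transcript length removed, 4 passed and the background was 59.8%. The groups did not overlap for 4 of the 8 genes (Spp1, Sox9, Sox4 and Krt18), against 56.0% of all genes tested. The median log2 fold change of the 8 was -0.07, beside 0.000406 for all genes tested. Values are CPM, which are counts relative to the library size after trimmed-mean scaling, unless stated otherwise.

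**Figure D1:**
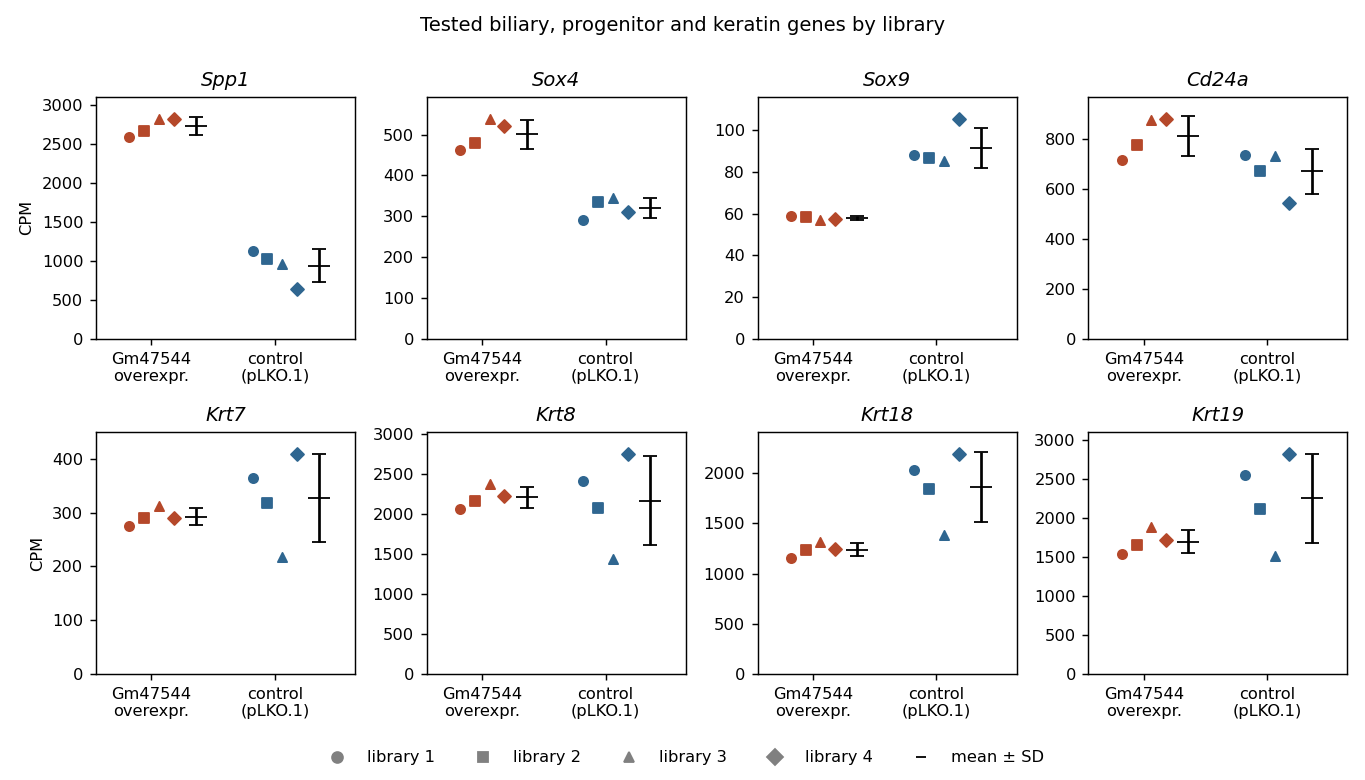
Expression (CPM, linear axes from 0) of the 8 tested genes in each library, with overexpression libraries on the left in red and control libraries on the right in blue. Marker shapes give the library number, and black bars give the mean ± SD (n = 4). The groups are apart for Spp1, Sox4, Sox9 and Krt18, and control library 3 is the lowest control for the 4 keratins.

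Promoter windows are shown for the genes the results turn on: Spp1, with the largest change of the 8, Sox4, which rose while Sox9 fell, and Krt8 and Krt18, neighbours on chromosome 15 of which only Krt18 passed the test. Of the 10 genes, 7 were found in the RefSeq table of promoters (GRCm38.p6, the assembly that mm10 names), which covers 250 bases before to 50 bases after each start. The windows are chr5:104434861-104435160 on the plus strand for Spp1, chr13:28953650-28953949 on the minus strand for Sox4, chr15:102004293-102004592 on the minus strand for Krt8 and chr15:102027966-102028265 on the plus strand for Krt18. Each is written 5′ to 3′ along its gene, and capitals mark matches, on either strand, to the motifs named after the sequences.
Spp1: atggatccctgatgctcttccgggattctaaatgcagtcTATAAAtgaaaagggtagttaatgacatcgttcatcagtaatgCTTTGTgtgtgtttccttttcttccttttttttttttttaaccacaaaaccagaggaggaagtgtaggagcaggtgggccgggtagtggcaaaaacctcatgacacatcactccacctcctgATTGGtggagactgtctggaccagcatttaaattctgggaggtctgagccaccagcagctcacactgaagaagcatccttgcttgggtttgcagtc
Sox4: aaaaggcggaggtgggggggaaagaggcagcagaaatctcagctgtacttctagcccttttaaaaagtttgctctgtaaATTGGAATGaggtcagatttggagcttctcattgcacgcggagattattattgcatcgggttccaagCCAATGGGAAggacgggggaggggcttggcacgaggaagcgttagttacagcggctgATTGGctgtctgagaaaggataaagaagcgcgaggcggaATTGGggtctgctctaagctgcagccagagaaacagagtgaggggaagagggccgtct
Krt8: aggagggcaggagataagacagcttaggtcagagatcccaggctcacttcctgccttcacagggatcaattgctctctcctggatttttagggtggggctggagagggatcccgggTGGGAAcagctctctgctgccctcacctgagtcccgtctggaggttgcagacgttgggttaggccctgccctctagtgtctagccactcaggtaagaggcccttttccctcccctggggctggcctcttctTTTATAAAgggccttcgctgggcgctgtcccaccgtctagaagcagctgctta
Krt18: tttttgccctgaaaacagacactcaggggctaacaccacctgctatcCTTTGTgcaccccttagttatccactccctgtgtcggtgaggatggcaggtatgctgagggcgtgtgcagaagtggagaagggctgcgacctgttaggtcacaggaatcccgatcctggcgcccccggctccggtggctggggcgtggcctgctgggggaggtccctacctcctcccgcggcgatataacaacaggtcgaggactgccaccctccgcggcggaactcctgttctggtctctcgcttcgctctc
The motifs searched, on both strands, were the TATA box (TATAAA), found in 13.6% of 32851 windows of the same length, and the CCAAT box, found in 37.4%. The GC box (GGGCGG) was found in 35.7% of windows and the AP-1 motif (TGANTCA) in 7.81%. The core (TGGGAA) of sites of RBPJ, which mediates Notch signalling, was found in 25.6%, the TEAD motif (GGAATG) in 14.7% and the SOX motif (ACAAAG) in 18.7%. Matches of the RBPJ and TEAD motifs can overlap. The Spp1 window held 1 match to the TATA box, at -211 from the listed start, 1 CCAAT box and 1 SOX motif. The Sox4 window held 4 CCAAT boxes, 1 RBPJ core and 1 TEAD motif. In it the CCAAT box at -171 overlapped the TEAD motif at -168, and that at -104 overlapped the RBPJ core at -100. The Krt8 window held 1 RBPJ core and 2 overlapping matches to the TATA box on opposite strands, at -3 and -1 from the listed start. The Krt18 window held 1 SOX motif and none of the other 6. These are matches of letters only, and binding was not measured.

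Spp1 encodes osteopontin, a secreted phosphoprotein of extracellular matrix that also acts as a cytokine and is made in the liver by bile duct cells. It had 2598, 2673, 2823 and 2829 CPM in overexpression libraries 1 to 4, against 1130.2, 1028, 966 and 646 CPM in control libraries 1 to 4. Every overexpression library lay above every control, and control library 4 was the lowest. The means were 2731 ± 114 CPM with overexpression and 943 ± 209 CPM in controls (SD, n = 4), 2.90-fold higher, which is 1.53 on the log2 scale (SE 0.15; edgeR quasi-likelihood adjusted p = 5.37e-06). Per kilobase of transcript, Spp1 was at 1812 ± 75.8 CPM per kb with overexpression and 625 ± 139 CPM per kb in controls (SD, n = 4), rank 7 with overexpression and rank 88 in controls among the 11491 tested genes with an annotated length. Spp1 alone took 0.272% to 0.295% of all counts in overexpression libraries and 0.0589% to 0.104% in controls. In the annotation, a gene model of unclear status, Gm42793, shares 309 of the 1648 exonic bases of Spp1 on the same strand, so a share of these reads could belong to it. Spp1 lies at chr5:104435118-104441050 on the plus strand of GRCm38.

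Osteopontin acts through the receptor CD44 and several integrins, and is cleaved by proteases and phosphorylated by the kinase FAM20C. Of 17 genes listed for these roles, 9 were tested. Of these, 6 rose, 0 fell and 3 did not pass, so 66.7% passed beside 64.4% of all genes, and the median log2 fold change was 0.88. Mmp7, counted among those that rose, passed the count filter only through the overexpression libraries. Cd44 was at 812 ± 72.6 CPM with overexpression and 245 ± 32.9 CPM in controls (SD, n = 4; log2 fold change 1.73, SE 0.12; edgeR quasi-likelihood adjusted p = 4.39e-07). Fam20c rose by 1.12 on the log2 scale (SE 0.17), and the integrin subunits Itgav and Itgb6 had 0.88 (SE 0.13) and 1.15 (SE 0.20). Itgb1, the common beta subunit, was at 704 ± 29.7 and 550.5 ± 162 CPM in overexpression and control libraries (log2 fold change 0.36, SE 0.17, edgeR adjusted p = 0.0784; without control library 3, 0.55 and adjusted p = 2.56e-05), and Itgb5 was at 85 ± 2.88 CPM with overexpression and 87.7 ± 13.3 CPM in controls (log2 fold change -0.05). With the trend of each library on transcript length removed, the Itgav log2 fold change was 0.37.

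Sox9 and Sox4 are transcription factors of the same family that act together in bile duct development in the mouse, and they moved in opposite directions. Sox9 had 58.8, 58.5, 56.8 and 57.5 CPM in overexpression libraries 1 to 4, against 88.0, 86.4, 85.2 and 105 CPM in control libraries 1 to 4. The overexpression libraries lay close together and below all controls, of which library 4 was the highest. The means were 57.9 ± 0.91 CPM with overexpression and 91.3 ± 9.52 CPM in controls (SD, n = 4), a difference of -0.66 on the log2 scale (SE 0.11; edgeR quasi-likelihood adjusted p = 1.95e-04). Sox4 had 461, 481, 539 and 520.5 CPM with overexpression, against 291, 336, 345 and 311 CPM in controls, again without overlap. Its means were 500.4 ± 35.7 CPM with overexpression and 321 ± 24.6 CPM in controls (SD, n = 4), a difference of 0.64 on the log2 scale (SE 0.11; edgeR quasi-likelihood adjusted p = 2.00e-04). It became 0.35 (adjusted p = 0.00596) with the length trend removed. Both calls held in all 15 alternative fits. Within each library the ratio of Sox4 to Sox9, per kilobase, was 6.76, 7.08, 8.18 and 7.81 with overexpression and 2.85, 3.35, 3.49 and 2.54 in controls. Sox9 lies at chr11:112782224-112787760 on the plus strand and Sox4 at chr13:28948919-28953713 on the minus strand. A long non-coding RNA gene, Gm26735, lies opposite Sox4 and covers 2616 of its 4795 exonic bases. No source used here gives the strand setting of the counting, so reads of Gm26735 and Sox4 could not be told apart and the Sox4 value is uncertain.

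Of 17 other SOX genes, 11 had no counts and 4 were tested, all of which rose, where 32.3% of all genes did (median log2 fold change 0.59). Sox11, the closest relative of Sox4 among them, was at 96.3 ± 7.54 CPM with overexpression and 66.8 ± 5.63 CPM in controls (SD, n = 4), with a log2 fold change of 0.53 (SE 0.11), and Sox5, Sox6 and Sox13 had 1.34, 0.66 and 0.52. Only Sox5 and Sox13 still passed with the length trend removed, at 0.83 and 0.39, while Sox6 was at 0.05 and Sox11 turned to -0.10. That is 2 of 4, where 59.8% of all genes passed.

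The simple keratins did not move as a block. Per kilobase, Krt8, Krt19 and Krt18 ranked 20, 21 and 36 among tested genes with overexpression and 51, 32 and 40 in controls, and Krt7 ranked 876 with overexpression and 1064 in controls. The rank of Krt7 depends on the annotated transcript of 4094 bases used for its length, against 1958 bases for Krt8. Krt8, the type II chain found in all simple epithelia, had 2066, 2170.5, 2374 and 2232 CPM in overexpression libraries 1 to 4, against 2409, 2076, 1444 and 2751 CPM in control libraries 1 to 4. The overexpression values lay inside the range of the controls. The means were 2210.5 ± 129 CPM with overexpression and 2169.9 ± 557 CPM in controls (SD, n = 4), a difference of 0.03 on the log2 scale (SE 0.16; edgeR quasi-likelihood adjusted p = 0.896). Krt18, its usual type I partner, had 1157, 1239, 1318 and 1246 CPM with overexpression, against 2031, 1837, 1387 and 2188 CPM in controls. All 4 overexpression libraries lay below all controls, although control library 3 came close. The means were 1239.9 ± 65.8 CPM with overexpression and 1861 ± 347 CPM in controls (SD, n = 4), a difference of -0.59 on the log2 scale (SE 0.14; edgeR quasi-likelihood adjusted p = 0.00231). That call was lost with the length trend removed, where the log2 fold change of Krt18 was -0.13 (edgeR adjusted p = 0.28), and it was -0.73 without control library 3.

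Of the biliary keratins, Krt19 fell and Krt7 did not pass. Krt19, a type I chain, had 1543, 1657, 1883 and 1723 CPM with overexpression, against 2556, 2115, 1519 and 2822 CPM in controls. Control library 3 lay below every overexpression library, and the other 3 controls lay above them all. The log2 fold change of Krt19 was -0.40 (SE 0.17; edgeR quasi-likelihood adjusted p = 0.0465), -0.58 (adjusted p = 3.63e-05) without control library 3 and 0.00194 (adjusted p = 0.991) with the length trend removed, and it passed in 5 of 15 alternatives. The Krt19 call was lost without each of the other 7 libraries, with log2 fold changes of -0.46 to -0.28. Krt7, a type II chain, had 275, 291, 313 and 289.6 CPM with overexpression, against 365, 317, 218 and 408 CPM in controls. Its log2 fold change was -0.16 (SE 0.16; edgeR quasi-likelihood adjusted p = 0.392), and -0.34 (adjusted p = 0.00155) without control library 3, the single alternative of 15 in which it passed.

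**Figure D2:**
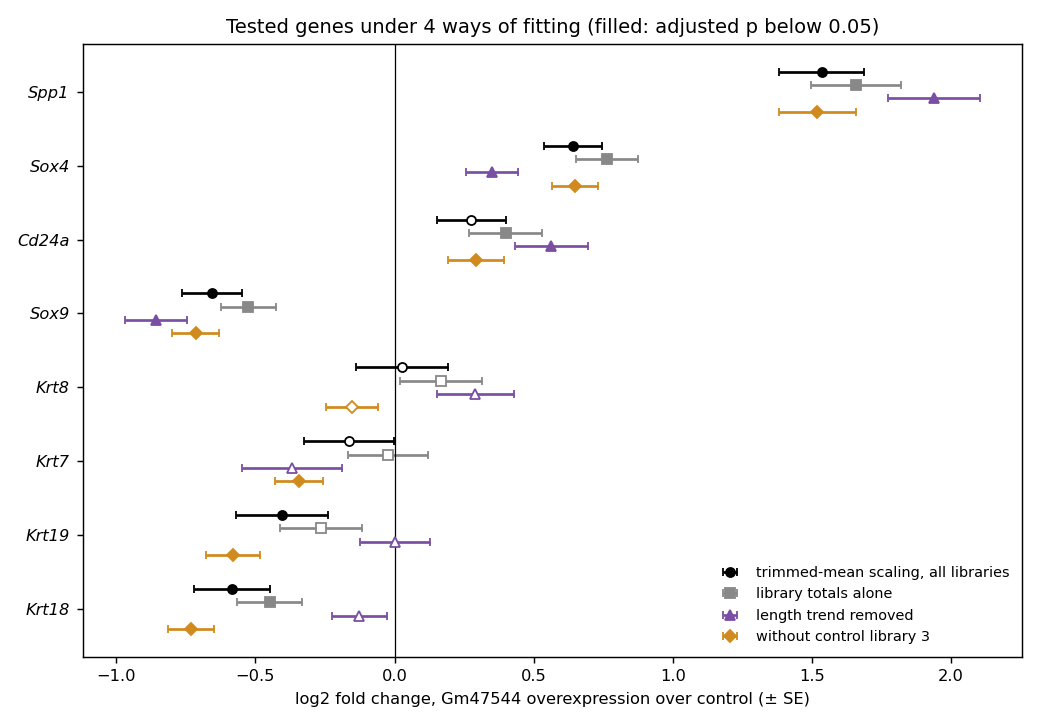
Log2 fold changes (overexpression over control, with SE) of the 8 tested genes with all libraries, with library totals as the scaling, with the trend on transcript length removed and without control library 3. Filled symbols have an adjusted p below 0.05. Spp1, Sox4 and Sox9 are filled in all 4, Krt18 is open with the length trend removed, and Krt8 is open throughout.

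Ratios between keratins within a library do not depend on how libraries are scaled, and they separated the groups more cleanly than the levels. Krt8 to Krt18, per kilobase of transcript, was 1.31, 1.29, 1.32 and 1.31 in overexpression libraries 1 to 4, against 0.87, 0.83, 0.76 and 0.92 in control libraries 1 to 4. Per kilobase, Krt8 was thus the higher of the pair in every overexpression library, and Krt18 in every control. In CPM, Krt8 was the higher in every control too (means 2169.9 and 1861 CPM). The order of the pair in controls therefore depends on the annotated lengths used, 1958 bases for Krt8 and 1437 bases for Krt18. The mean ratio was 1.31 ± 0.0162 with overexpression and 0.847 ± 0.0670 in controls (SD, n = 4). Krt8 to Krt19 was 1.05 ± 0.0260 with overexpression and 0.775 ± 0.0150 in controls, also without overlap. In control library 3, the lowest control for each of the 4 keratins, the ratio of Krt8 to Krt19 was 0.765, within the 0.759 to 0.790 of the other 3 controls. The pair of type II chains kept nearly the same ratio within each group, with Krt7 to Krt8 between 0.0621 and 0.0640 with overexpression and between 0.0710 and 0.0731 in controls. Summed by type, type II to type I transcripts stood at 0.618 ± 0.00775 with overexpression and 0.433 ± 0.0181 in controls (SD, n = 4). These ratios were chosen after the values were seen and are given with no test. The difference between the log2 fold changes of Krt8 and Krt18 was 0.61, and ran from 0.42 with the length trend removed to 0.66 over the 15 alternatives. That of Krt7 and Krt8 was -0.19 and became -0.66 with the length trend removed, so these ratios depend on that correction although not on library scaling.

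**Figure D3:**
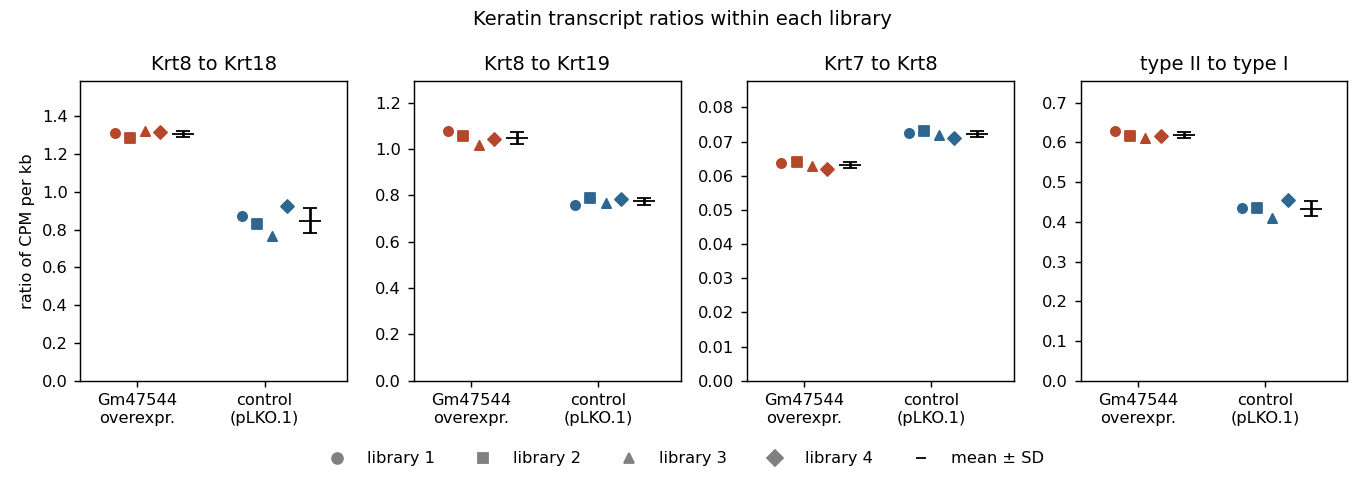
Ratios of keratin transcripts (CPM per kilobase of transcript, linear axes from 0) within each library, overexpression on the left in red and control on the right in blue, with marker shapes for library numbers and black bars for mean ± SD (n = 4). Krt8 to Krt18 is at 1.29 to 1.32 with overexpression and at 0.764 to 0.923 in controls, and no panel shows an overlap.

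As shares of the 4 keratins per kilobase, Krt8 took 35.9% ± 0.27 with overexpression and 28.2% ± 0.836 in controls, Krt18 took 27.5% ± 0.408 with overexpression and 33.4% ± 1.72 in controls, Krt19 took 34.3% ± 0.632 with overexpression and 36.4% ± 0.947 in controls, and Krt7 took 2.27% ± 0.0382 with overexpression and 2.03% ± 0.0533 in controls (SD, n = 4 each). The share of Krt7 is set by the annotated transcript of 4094 bases used for its length. The summed keratins overlapped, at 2906 to 3401 CPM per kb with overexpression and 2719 to 4818 CPM per kb in controls. The mesothelial markers Msln (320 ± 19 and 316 ± 54.3 CPM in overexpression and control libraries) and Upk1b (18.7 ± 1.77 CPM with overexpression and 34.5 ± 3.98 CPM in controls), from another cell type rich in these keratins, were detected beside them, and their part in the keratin values was not tested. Krt8 and Krt18 lie 23.7 kb apart on chromosome 15 (Krt8 at chr15:101996698-102004482 on the minus strand, Krt18 at chr15:102028180-102032027 on the plus strand), Krt7 lies 566 kb from Krt8, and Krt19 is at chr11:100140810-100148665 on the minus strand. A processed pseudogene, Krt8-ps, matches Krt8 over 941 bases at 98.6% identity, and Gm5200 matches Krt18 over 1267 bases at 90.4% identity, so the counts of both genes may lack reads that fit either place.

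Among 37 other keratin genes, 12 had no counts and 6 were tested, of which 3 rose and 3 fell, where 64.4% of all genes passed. Krt12 and Krt87, which rose, passed the count filter only through the overexpression libraries, and Krt4, which fell, only through the controls. The number of calls is therefore no result about these genes. Krt20, a type I chain of gut and bladder epithelium and the most abundant of them, was at 277 ± 27.1 CPM with overexpression and 137 ± 20.2 CPM in controls (SD, n = 4; log2 fold change 1.01, SE 0.13; edgeR quasi-likelihood adjusted p = 2.64e-05). Krt80, a type II chain, fell by 1.16 on the log2 scale (SE 0.14), and Krt4, a type II chain of stratified epithelia, was at 0.639 ± 0.16 CPM with overexpression and 7.92 ± 1.8 CPM in controls (log2 fold change -3.64, SE 0.27). Krt12, a keratin of the cornea, had 2.13 ± 0.729 CPM with overexpression and 0.0446 ± 0.0592 CPM in controls.

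Genes of proteins that anchor keratin filaments at desmosomes and to other cell structures moved in both directions. Of 17 tested, 9 rose, 2 fell and 6 did not pass, with a median log2 fold change of 0.29, and 64.7% passed beside 64.4% of all genes. Dsg2, a desmosomal cadherin, was at 336 ± 26.5 CPM with overexpression and 134 ± 23.8 CPM in controls (SD, n = 4; log2 fold change 1.32, SE 0.13), and Perp, a desmosomal membrane protein, at 117 ± 7.28 CPM with overexpression and 269 ± 24.1 CPM in controls (log2 fold change -1.20, SE 0.11). Pkp1, a plakophilin, rose at a low level (log2 fold change 2.74, SE 0.37), and Dst, a long plakin gene, had 1.00, which turned to -0.03 with the length trend removed. Pkp1 and Dsg3, another gene that rose, passed the count filter only through the overexpression libraries. Jup and Pkp4 did not pass, with log2 fold changes of 0.21 and -0.14, although Pkp4 passed with the length trend removed (-0.40, edgeR adjusted p = 0.00235). Of 7 tested genes of other intermediate filaments and lamins, 3 rose (Syne1, a nuclear envelope protein, Synm and Des) and 2 fell, so 71.4% passed beside 64.4% of all genes. With the length trend removed, Syne1 was at 0.30 (edgeR adjusted p = 0.0102). Vimentin (Vim), the filament protein of mesenchymal and many cultured cells, was at 1501 ± 131 CPM with overexpression and 1387 ± 65.1 CPM in controls (log2 fold change 0.11, edgeR adjusted p = 0.358). The nuclear lamin Lmnb1 had a log2 fold change of -0.61 (SE 0.10), and Lmna had -0.35 (SE 0.16) and did not pass, except without control library 3 (-0.52, edgeR adjusted p = 2.52e-05).

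The surface proteins used to sort liver progenitors were expressed very unequally. Cd24a, a small glycoprotein anchored in the membrane, had 718, 775, 875 and 882 CPM in overexpression libraries 1 to 4, against 736, 672, 732 and 545 CPM in control libraries 1 to 4. Overexpression library 1 lay below control libraries 1 and 3, and the other 3 lay above all controls. The log2 fold change of Cd24a was 0.28 (SE 0.12; edgeR quasi-likelihood adjusted p = 0.067), and it passed in 3 of 15 alternatives: with library totals as the scaling (where 64.0% of all genes passed; 0.40, adjusted p = 0.018), without control library 3 (0.29, adjusted p = 0.0148) and with the length trend removed (0.56, adjusted p = 0.00255). Cd24a lies at chr10:43578284-43584265 on the plus strand. The processed pseudogenes Gm6212 and Gm15352 match Cd24a over 218 and 259 bases at 96.8% and 92.3% identity, so some of its reads may be uncertain.

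Prom1, the pentaspan membrane protein CD133, had 1, 10, 4 and 13 counts in overexpression libraries 1 to 4, against 3, 1, 2 and 1 counts in control libraries 1 to 4. The ranges overlapped, and the sums were 28 counts with overexpression and 7 in controls, a ratio of 4.31 at equal depth (95% exact binomial interval 1.84 to 11.7, counting error only, while the overexpression libraries differed among themselves by more than a factor of 10). Prom1 had too few counts for the filter. With no filter, where 48.6% of 16281 genes passed, it reached 1.97 on the log2 scale (SE 0.72; edgeR quasi-likelihood adjusted p = 0.0258). An antisense gene, Gm16401, shares 424 of the 7175 exonic bases of Prom1. Epcam, the epithelial adhesion molecule of bile ducts and progenitors, had 0 counts in all 4 overexpression libraries and 1 count in a single control library. A floor of 3 counts over a group corresponds to 0.0548 CPM with overexpression and 0.0509 CPM in controls, so Epcam lay below what this depth can show in both groups, and no fold was computed. Krt19 and Krt7 were thus present in cells in which Epcam was not detectable at this depth.

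Other genes of bile ducts and liver progenitors moved in both directions. Of 36 listed, 35 had a row and 25 were tested. Of these, 13 rose, 7 fell and 5 did not pass, or 80% passed beside 64.4% of all genes, and the median log2 fold change was 0.50. Mmp7 and Gli3, counted among those that rose, passed the count filter only through the overexpression libraries. Besides Cd44, which is in both lists, the called genes with the smallest p were Onecut2, a transcription factor of liver and bile duct development, Pkhd1, the ciliary protein fibrocystin, and Itga6, a laminin-binding integrin subunit. Onecut2 was at 379 ± 21.3 CPM with overexpression and 114 ± 27.1 CPM in controls (SD, n = 4; log2 fold change 1.73, SE 0.15; edgeR quasi-likelihood adjusted p = 1.78e-06). The log2 fold changes of Pkhd1 and Itga6 were 1.75 (SE 0.16) and 1.72 (SE 0.15). With the length trend removed, those of Onecut2 and Pkhd1 were 0.85 and 0.97, and those of Itga6 and Cd44 were 1.51 and 1.34. Named after its values were seen, Aqp1, the water channel of cholangiocytes, fell to 903 ± 467 CPM with overexpression, against 4288 ± 847 CPM in controls (SD, n = 4; log2 fold change -2.25, SE 0.29; edgeR quasi-likelihood adjusted p = 3.71e-05). Anxa2 was at 835 ± 99.7 CPM with overexpression and 849 ± 105 CPM in controls and did not pass (log2 fold change -0.02), but passed as higher with the length trend removed (0.42, edgeR adjusted p = 0.00352).

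Genes of the Notch pathway were tested for 23 of 30 listed. Of these, 9 rose, 3 fell and 11 did not pass, so 52.2% passed beside 64.4% of all genes, and the median log2 fold change was 0.05. The receptor Notch2 and the ligand Jag1, the pair required for bile ducts in mouse and human, were at 249.6 ± 17.6 and 252 ± 16.6 CPM with overexpression and at 133 ± 12 and 162 ± 20.3 CPM in controls (SD, n = 4). Their log2 fold changes were 0.90 (SE 0.11) and 0.63 (SE 0.11), and with the length trend removed the Notch2 call was lost (0.17, edgeR adjusted p = 0.186) and Jag1 was at 0.24. The coactivators Maml2 and Maml3 had 1.29 and 0.90, and with the length trend removed they had 0.85 and 0.30, where the Maml3 call was lost (edgeR adjusted p = 0.0577). Hes1, a direct target of Notch signalling, was at 93.0 ± 3.07 and 94.5 ± 9.57 CPM in overexpression and control libraries and did not pass (log2 fold change -0.02, SE 0.11), but passed as higher with the length trend removed (0.41, edgeR adjusted p = 0.00123). Ncstn, a subunit of the protease that releases the Notch domain, had -0.21 (SE 0.11) and did not pass, except without control library 3 (-0.31, edgeR adjusted p = 8.74e-04). Without that library, 16 of the listed Notch genes passed, where 77.4% of all genes did.

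**Figure D4:**
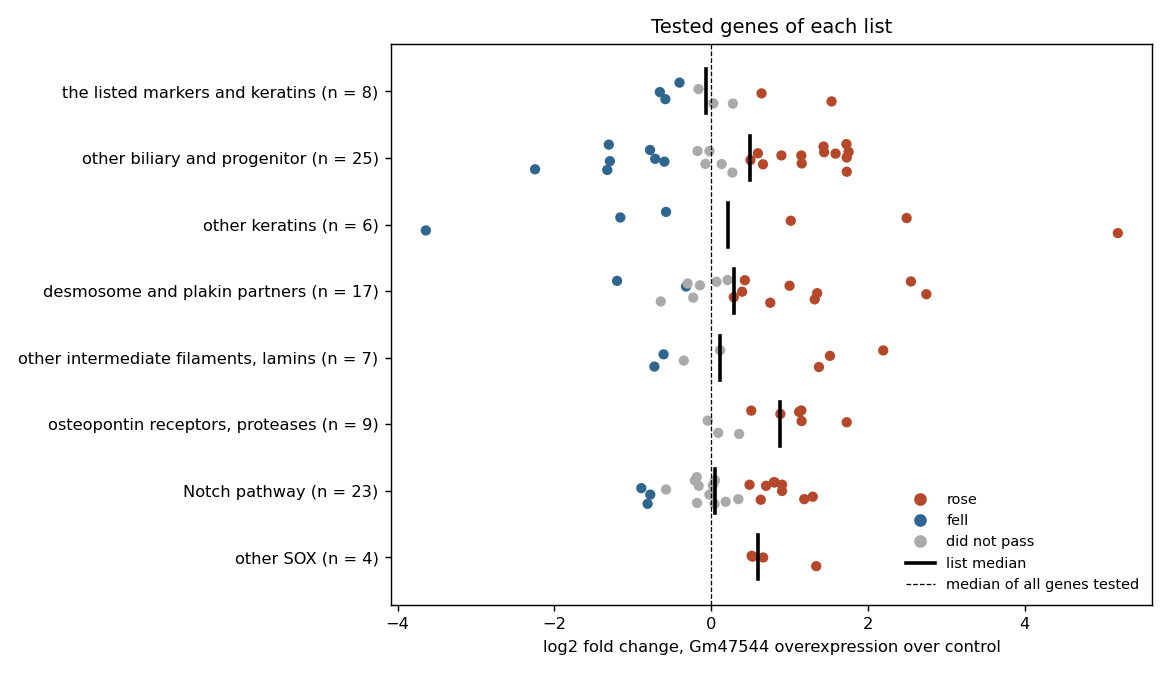
Log2 fold changes (overexpression over control) of the tested genes of each list, 1 point per gene with vertical scatter for visibility only, red for genes that rose, blue for genes that fell and grey for genes that did not pass. Thick bars are list medians, from -0.07 for the markers and keratins described here to 0.88 for osteopontin receptors and proteases, and the dashed line is the median of all genes tested.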

How the data were processed

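Gene expression was measured by RNA-seq of AML-12 cells in 8 libraries, 4 with Gm47544 overexpression and 4 controls, grouped and numbered by the sample titles. The authors deposited raw counts per gene symbol, and all values were whole numbers. Per the submitters' processing notes, FastQC, STAR and HTSeq were used with mm10. The sources used here give no versions, annotation or strand setting.

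The fits used edgeR 4.0.16 (R 4.3.3). Genes were kept by filterByExpr at a minimum count of 10, libraries were scaled by trimmed means, and groups were compared by a two-sided quasi-likelihood test with no covariate. A gene could pass this filter through a single group. P-values were adjusted by Benjamini and Hochberg's method over all 11520 genes tested and called under 0.05. Of 21983 symbols, 21926 matched GENCODE M21 (GRCm38), which gave positions and transcript lengths. SE was taken from the fold change (log2) and the test's F, as the size of the first over the root of the second. Relatives were searched with BLAST 2.17.0 (at least 90% identity over 200 bases). The test was checked on simulated counts. No 2 libraries of a group matched within counting noise (chi-square per gene 2.44 to 106).

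The genes and lists were chosen with earlier results of these data known. From each list the text names up to 4 called genes with the smallest p and 2 others by level, and from each marker list the 2 most abundant. One gene that this rule names is not reported here. Alternatives were other scalings, filters, DESeq2 1.42.0, a replicate block, leaving out each library, and removal of the trend of each library on transcript length (lowess, span 0.3). Counting intervals and floors cover counting error only. Figures were drawn with matplotlib 3.10.9.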

Additional observations from a re-analysis of the deposited data

Results flagged for a closer look

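In these groups of 4 libraries, 10 of 142 values had a library farther from the rest than Dixon's 95% limit allows, where chance flags about 1 in 20. Control library 4 had 105 CPM of Sox9, against 85.2 to 88.0 CPM in the other controls, and 0.0589% of its counts on Spp1, against 0.0975% to 0.104%. Control library 3 had 295 CPM of Cd44 against 228 to 229 CPM in the other controls, 155 CPM of Onecut2 against 99.8 to 103 CPM, 97.6 CPM of Pkhd1 against 59.2 to 63.0 CPM, 23.7 CPM of Maml2 against 14.5 to 15.4 CPM, and 184 CPM of Itgav against 130.2 to 138 CPM. It also had 36.8 CPM of Krt80 against 49.8 to 51.5 CPM. For these 6 genes control library 3 lay nearer to the overexpression libraries than the other controls did. Overexpression library 2 had 4.41 CPM of Sox5 against 5.49 to 5.66 CPM in the other overexpression libraries, and control library 2 had 40.4 CPM of Upk1b against 32.3 to 32.7 CPM in the other controls.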

How the results depend on the processing

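Over 15 alternatives the calls of Spp1 (log2 fold change 1.39 to 1.94), Sox9 (-0.86 to -0.52) and Sox4 (0.35 to 0.76) held in all, Krt18 (-0.73 to -0.13) in 14, and Krt8 was called in none. With the length trend removed, Krt19 turned to 0.00194, Dst to -0.031, Sox11 to -0.10, Anxa2 to 0.42 and Hes1 to 0.41 (log2 fold changes), of which Anxa2 and Hes1 passed, and 2 other SOX genes were called in place of 4. With library totals as the scaling, which moves the median of all genes to 0.128, Anxa2 turned to 0.11, Hes1 to 0.11 and Itgb5 to 0.088, and with no count filter Msln turned to -0.00633. When each library was left out, the log2 fold change ran from -0.15 (without control library 3) to 0.16 for Krt8, which was also negative without overexpression library 3, from -0.14 to 0.048 for Anxa2, from -0.11 to 0.031 for Hes1, from -0.17 to 0.034 for Itgb5 and from -0.12 to 0.084 for Msln. Cd24a, Krt7 and Krt19 changed sides of the threshold as given above, and the cause was not tested. The count of these genes called ran from 4 to 7 when each library was left out, and that of all genes from 6659 to 9001, the highest of both without control library 3. The deviations of same-numbered libraries from their group means had correlations of -0.12 to 0.02. Each was lower than the highest correlation with another number, which can arise by chance. These weak correlations cannot settle whether the numbers pair the libraries. With a replicate block 4 of these genes and 7129 genes in all were called, the Krt19 call being lost (log2 fold change -0.37, adjusted p = 0.0638 in edgeR). At this depth Epcam and Prom1 cannot be compared closely between the groups.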
